A study of Homo sapiens with 16 samples.

Results

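The transcripts described here are those of 40 ribosome biogenesis factors, the nucleolar proteins that transcribe, modify, cut and package ribosomal RNA, in human A549 lung carcinoma cells given 1 of 3 compounds known by the code names 5G6, 6D7 and 7F8. They were taken by gene symbol, and all 40 were found among the 39550 gene names of the tables. All 40 passed the filter on low values, 1 TPM or more in 2 or more of the libraries, which left 15958 genes to test. TPM is a length-corrected share of the mature RNA in a library, so levels of different genes can be set beside each other. The lowest value of any of the 40 was 6.45 TPM (UTP15) and the highest 2122 TPM (NPM1).

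Every group, controls included, was the A549 line overexpressing a fusion of CD63, a membrane protein of exosomes, to the luciferase Nluc. Cells were exposed to DMSO (the solvent control) or to 1 of the compounds, and collected after either 4 h or 48 h, which gives 8 groups of 2 libraries, described by the submitters as biological replicates. The labels give 4 µM for every group, the DMSO groups included, and the series title places the study in exosome release and the AMPK and SREBP pathway. One engineered line was used, with neither the unmodified parent line nor untreated cells among the groups used here, and the structures of the compounds are not given in the labels.

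A ribosome starts in the nucleolus, where RNA polymerase I copies the ribosomal DNA into one long precursor. Small nucleolar ribonucleoproteins (snoRNPs) guide its chemical modification, box C/D particles by adding methyl groups to ribose and box H/ACA particles by turning uridine into pseudouridine. The small subunit processome and a series of large subunit assembly factors then fold and cut the precursor while ribosomal proteins join it. The load on this pathway is known to follow cell growth, and enlarged nucleoli are a classical feature of fast-growing cancer cells.

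The libraries held 6.10 to 8.86 aligned gigabases, estimated from the ratio of coverage to FPKM, and 13378 to 14909 genes at 1 TPM or more. Mitochondrial genes took 18.9 to 32.5 percent of TPM in 14 libraries and 6.13 and 6.48 percent in the 6D7 libraries at 48 h. All levels given here are therefore TPM without mitochondrial genes, rescaled to the same total. Epithelial keratins were abundant in every library (KRT8 at 1502 to 3427 TPM), while KRT19 ran from 16.7 to 391 TPM and EPCAM from 0.375 to 11.4 TPM. At 48 h the means of these epithelial markers moved in different directions with the compounds. KRT19 averaged 59.1 TPM with DMSO and 341, 307 and 28.3 with 5G6, 6D7 and 7F8. KRT8 averaged 2952 TPM with DMSO and 3410, 2424 and 1731. Others had lower means with each compound. EPCAM averaged 7.77 TPM with DMSO and 1.76, 2.81 and 0.587 with 5G6, 6D7 and 7F8. AKR1B10 averaged 5449 TPM with DMSO and 3477, 2865 and 1491, and ALDH1A1 8295 TPM with DMSO and 3647, 2732 and 3587. Their part in the results at 48 h was not tested. In every library PTPRC and CD3E of immune cells stayed at or below 0.0967 TPM and DCN of fibroblasts was listed at 0. CD14 (1.58 to 11.3 TPM) and COL1A1 (2.79 to 20.8 TPM), which also stand on the lists of other cell types, were detected.

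At 48 h most ribosome biogenesis factors stood lower with each compound than with DMSO, and none was called higher. Calls are from limma on log2(TPM + 1), at a Benjamini-Hochberg adjusted p below 0.05 over all tested genes. With 5G6, 16 of the 40 were called lower, against 2.11 percent of all tested genes. With 6D7, 14 were called lower, against 3.58 percent. With 7F8, 24 were called lower, against 6.5 percent. The median log2 fold changes of the 40 were -0.85, -0.79 and -0.90 with 5G6, 6D7 and 7F8, and those of all tested genes -0.07, -0.06 and -0.18. The 3 comparisons use the same DMSO libraries and are not independent of each other.

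The libraries themselves separated for most of the factors. Both 5G6 libraries lay below both DMSO libraries for 38 of 40 factors, against 28.7 percent of all tested genes. Both 6D7 libraries did so for 36 factors, against 27.1 percent, and both 7F8 libraries for 39, against 38.7 percent. In 36 factors this held for all 3 compounds. The same count over all tested genes was not made, and the 3 comparisons share the DMSO libraries. The exceptions among the 40 factors were NOP10 in every comparison, RRP12 with 5G6 and 6D7, and GAR1 and PPAN with 6D7. Added up, the 40 transcripts came to 7089 and 6303 TPM in the DMSO libraries at 48 h, 3653 and 3810.3 with 5G6, 4198 and 3978 with 6D7 and 3406 and 4166 with 7F8. The mean sums were 44.3, 39.0 and 43.5 percent lower than with DMSO. In bulk RNA, fewer cells with these transcripts and less of them per cell cannot be told apart.

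The number of calls changed when a single library was left out. Such a fit has 7 residual degrees of freedom in place of 8 and a group with a single library. The part of this in the counts was not tested. Without DMSO replicate 1 of 48 h no factor was called for any compound, and without DMSO replicate 2 the counts were 7, 8 and 10 for 5G6, 6D7 and 7F8. Without either 5G6 library the count for 5G6 was 0. For 6D7 and 7F8 the count fell sharply without replicate 1 of the compound. Without replicate 2 of the compound it fell less for 7F8 and did not fall for 6D7. The median log2 fold change stayed between -0.96 and -0.78 for 5G6, between -0.77 and -0.71 for 6D7 and between -1.06 and -0.81 for 7F8 whichever library was left out. Every factor called lower was below 0 under every alternative tried, and the sign of an uncalled value changed for GAR1, RRP1, RRP12 and PPAN with 6D7 and for NOP10 with 7F8. With median-of-ratios scaling the counts were 8, 12 and 10, and fitted on the libraries of 48 h alone they were 0, 0 and 8. With the replicate number as a block they were 27, 23 and 32, though the labels do not say what a number marks. The shares of all tested genes called under these alternatives were not counted.

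**Figure D1:**
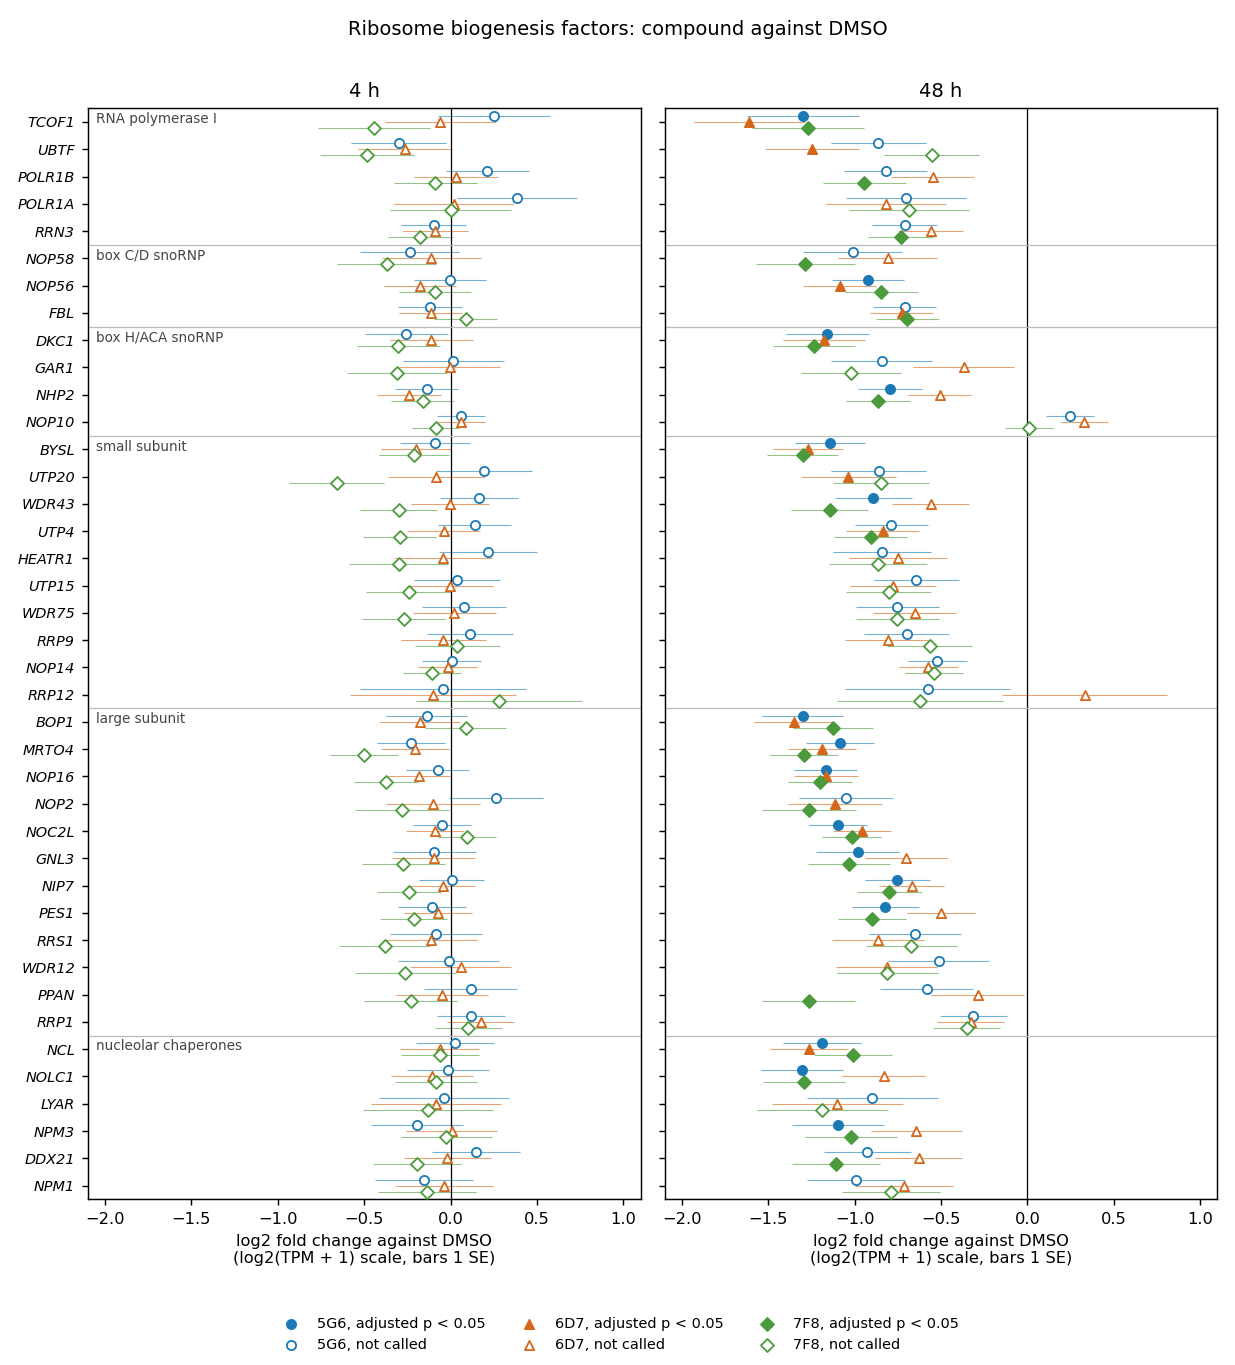
Log2 fold change against DMSO of the same hour (x axis, log2(TPM + 1) scale, bars 1 SE) for each of the 40 factors (y axis, by role), at 4 h on the left and 48 h on the right. Filled symbols are called at adjusted p below 0.05: none at 4 h, and 16, 14 and 24 factors, all to the left of 0, at 48 h for 5G6, 6D7 and 7F8.

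The promoters of the factors were searched for 3 short motifs on both strands. The windows ran from 250 bases before to 50 bases after the annotated start (RefSeq sequences on GRCh38.p14). Windows were found for 34 of the 40 factors, 43 in all, and not for NOP58, BOP1, RRP12, RRS1, NOLC1 and TCOF1. The E-box CACGTG, the palindromic site of basic helix-loop-helix leucine zipper factors, stood in 15 of these windows (34.9 percent), against 9.39 percent of the windows of tested genes and 7.26 percent of all 35116 windows. These 15 belong to BYSL, DDX21, FBL, GAR1, GNL3, LYAR, MRTO4, NOP2, NOP10, NOP14, PES1, RRP9, UTP4, UTP20 and WDR43. The ETS motif CCGGAAGT was in 9 windows of 8 factors (20.9 percent of windows, against 7.03 percent of those of tested genes and 4.14 percent of all), and DDX21, GAR1, NOP10 and UTP4 held both. The NRF1 core GCATGCGC was in 1 window, that of DKC1 (2.33 percent, against 4.65 percent of those of tested genes and 3.05 percent of all). A match is a run of letters and does not show that a factor binds there.

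The 7 stretches printed next were chosen after the search, to show where the E-box lies: the start is within 60 bases of the gene's start in the deposited tables and the E-box within the 120 bases shown, 90 before and 30 after the start. Letters run 5′ to 3′ on the gene's strand, with the E-box in capitals. The first bases of the motif are at -16 to 15 relative to the start, which is base 1.
MRTO4: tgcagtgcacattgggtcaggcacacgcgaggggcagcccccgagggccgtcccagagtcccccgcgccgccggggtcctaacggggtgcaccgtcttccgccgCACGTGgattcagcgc
WDR43: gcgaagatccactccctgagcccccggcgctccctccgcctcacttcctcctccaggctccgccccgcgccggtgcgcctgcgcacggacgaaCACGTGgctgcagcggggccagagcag
RRP9: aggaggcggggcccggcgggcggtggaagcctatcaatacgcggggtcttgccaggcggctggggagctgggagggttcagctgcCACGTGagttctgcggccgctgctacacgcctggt
UTP20: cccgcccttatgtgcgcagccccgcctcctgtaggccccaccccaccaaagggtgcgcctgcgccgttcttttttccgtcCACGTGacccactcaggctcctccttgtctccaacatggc
UTP4: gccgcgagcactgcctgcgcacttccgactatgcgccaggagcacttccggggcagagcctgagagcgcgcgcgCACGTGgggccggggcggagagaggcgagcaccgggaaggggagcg
FBL: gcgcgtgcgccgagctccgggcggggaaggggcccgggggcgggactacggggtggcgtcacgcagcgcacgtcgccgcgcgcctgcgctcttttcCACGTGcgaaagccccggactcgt
NOP10: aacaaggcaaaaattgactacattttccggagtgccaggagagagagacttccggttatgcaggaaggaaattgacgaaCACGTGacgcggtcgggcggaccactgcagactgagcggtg
The stretches lie at chr1:19251715-19251834 (plus strand) for MRTO4, chr2:28894577-28894696 (plus strand) for WDR43, chr3:51941875-51941994 (minus strand) for RRP9, chr12:101280015-101280134 (plus strand) for UTP20, chr16:69132559-69132678 (plus strand) for UTP4, chr19:39846350-39846469 (minus strand) for FBL and chr15:34343107-34343226 (minus strand) for NOP10. Each ends with the first 30 bases from the annotated start. The deposited gene start lay upstream of it by 53 bases for UTP4, 25 for NOP10, 16 for FBL and 6 for MRTO4. By the deposited starts the E-boxes of UTP4 at -16 and of NOP10 at -11 are therefore inside the gene.

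Factors with and without an E-box had overlapping changes at 48 h. The 15 factors with one had median log2 fold changes of -0.86, -0.73 and -1.02 with 5G6, 6D7 and 7F8, and the 19 matched factors without one -0.82, -0.75 and -0.84. NOP10, printed last, has an E-box at -11 and another at -170, outside the stretch shown, and is the factor whose level was not below DMSO with any compound. These are descriptions of 34 genes, with no test.

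The RNA polymerase I group has 5 factors, and at least 1 of them was called lower with each compound: TCOF1 alone with 5G6, TCOF1 and UBTF with 6D7, and TCOF1, POLR1B and RRN3 with 7F8. The median log2 fold changes of the 5 were -0.82, -0.82 and -0.73. TCOF1 encodes treacle, which links ribosomal DNA transcription to processing, and had the largest fall among the 40 with 6D7. At 48 h it stood at 67.9 and 51.4 TPM in the DMSO libraries, 21.3 and 25.8 with 5G6, 14.4 and 24.2 with 6D7 and 24.6 and 23.3 with 7F8. No compound library reached a DMSO library. The log2 fold changes were -1.30 with 5G6, -1.61 with 6D7 and -1.27 with 7F8 (SE 0.32, limma adjusted p = 0.0458, 0.0173 and 0.0314), with means 60.5, 67.6 and 59.9 percent lower.

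UBTF encodes the factor that coats active ribosomal DNA. Its level was 97.4 and 76.7 TPM in the DMSO libraries, 56.3 and 39.3 with 5G6, 34.0 and 37.7 with 6D7 and 63.1 and 54.2 with 7F8. The 6D7 libraries were the lowest and the 7F8 libraries the nearest to DMSO. UBTF fell by 1.25 on the log2 scale with 6D7 (SE 0.27, adjusted p = 0.0240) and was not called with 5G6 (-0.86, adjusted p = 0.108) or 7F8 (-0.55, adjusted p = 0.238).

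POLR1A and POLR1B encode the largest catalytic subunits of the polymerase, and RRN3 the factor that recruits it to the promoter. POLR1A was at 31.8 and 34.0 TPM in the DMSO libraries, 19.0 and 20.6 with 5G6, 15.6 and 21.2 with 6D7 and 17.9 and 22.5 with 7F8. All 6 compound libraries were below DMSO, yet no comparison was called (log2 fold changes -0.70 with 5G6, -0.82 with 6D7 and -0.68 with 7F8, adjusted p = 0.304, 0.197 and 0.254). POLR1B was at 21.2 and 22.0 TPM in the DMSO libraries, 10.8 and 12.8 with 5G6, 14.9 and 14.0 with 6D7 and 9.17 and 12.6 with 7F8. It fell with 7F8 (-0.94 ± 0.24 SE, adjusted p = 0.0324), while 5G6 (-0.82) and 6D7 (-0.55) gave uncalled values. RRN3 was at 50.2 and 53.8 TPM in the DMSO libraries, 27.6 and 35.6 with 5G6, 34.0 and 35.9 with 6D7 and 27.7 and 34.4 with 7F8. It was called with 7F8 (-0.73 ± 0.19 SE, adjusted p = 0.0325) and not with 5G6 (-0.71) or 6D7 (-0.56). RRN3 has transcribed copies, of which RRN3P1 (3.49 to 7.78 TPM over all libraries) and RRN3P3 (2.29 to 4.60 TPM) were also listed, so reads may be split among them.

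The box C/D core proteins were called lower in 1, 2 and 3 of 3 cases with 5G6, 6D7 and 7F8 (medians -0.92, -0.81 and -0.84). FBL, fibrillarin, is the methyltransferase of the particle and the most abundant of the 3. Its level was 688 and 692 TPM in the DMSO libraries, 399.9 and 444 with 5G6, 412 and 420.3 with 6D7 and 370.2 and 491 with 7F8. The compound libraries did not overlap with DMSO, whose replicates were nearly equal. FBL was called with 6D7 (-0.73 ± 0.18 SE, adjusted p = 0.0398) and 7F8 (-0.69 ± 0.18 SE, adjusted p = 0.0365), and with 5G6 a change of like size missed the threshold (-0.71, adjusted p = 0.0519).

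NOP56 and NOP58 form the scaffold of the same particle. NOP56 was at 383 and 267 TPM in the DMSO libraries, 191 and 148 with 5G6, 157 and 143 with 6D7 and 187 and 169 with 7F8. It was called with all 3 compounds, at -0.92 with 5G6, -1.09 with 6D7 and -0.84 with 7F8 (SE 0.21, adjusted p = 0.0327, 0.0152 and 0.0285). NOP58 was at 168 and 121 TPM in the DMSO libraries, 75.6 and 65.1 with 5G6, 101 and 64.7 with 6D7 and 57.1 and 58.6 with 7F8. Its DMSO replicates and its 6D7 replicates were far apart, and only the change with 7F8 was called (-1.28 ± 0.29 SE, adjusted p = 0.0188; 5G6 -1.01 and 6D7 -0.81, not called).

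The box H/ACA proteins moved unequally, with 2, 1 and 2 of 4 called lower (medians -0.82, -0.44 and -0.94). DKC1 encodes dyskerin, the pseudouridine synthase, whose mutation causes dyskeratosis congenita. Its level was 168 and 119 TPM in the DMSO libraries, 61.9 and 64.1 with 5G6, 66.5 and 58.0 with 6D7 and 53.5 and 66.6 with 7F8. All 6 compound libraries lay close together, below the lower DMSO library. DKC1 fell with each compound, by 1.16, 1.18 and 1.23 on the log2 scale (SE 0.24, adjusted p = 0.0223, 0.0179 and 0.0120). NHP2 was at 376 and 381 TPM in the DMSO libraries, 214 and 221 with 5G6, 287 and 246 with 6D7 and 192 and 224 with 7F8, and was called with 5G6 (-0.80, adjusted p = 0.0357) and 7F8 (-0.87, adjusted p = 0.0161) but not with 6D7 (-0.51, adjusted p = 0.131). GAR1 was not called, at -0.84 with 5G6, -0.37 with 6D7 and -1.02 with 7F8 (adjusted p = 0.136, 0.516 and 0.0504). The 6D7 libraries of GAR1 disagreed, at 77.3 and 39.6 TPM against 84.0 and 61.3 with DMSO, and the value with 6D7 was 0.10 without replicate 2 and -0.84 without replicate 1.

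NOP10, the smallest protein of the H/ACA particle, was the exception of the whole list. Its level was 376 and 351 TPM in the DMSO libraries, 444 and 420.4 with 5G6, 456 and 459 with 6D7 and 356 and 377 with 7F8. Both 5G6 and both 6D7 libraries were above both DMSO libraries, and the 7F8 libraries overlapped with them. The log2 fold changes were 0.25 with 5G6, 0.33 with 6D7 and 0.01 with 7F8 (SE 0.14), and none was called (adjusted p = 0.366, 0.187 and 0.978). On TPM with mitochondrial genes left in, NOP10 was called higher with 6D7 (0.75, adjusted p = 0.0122), a scale on which the median of all tested genes was 0.35 higher than on the scale used here.

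**Figure D2:**
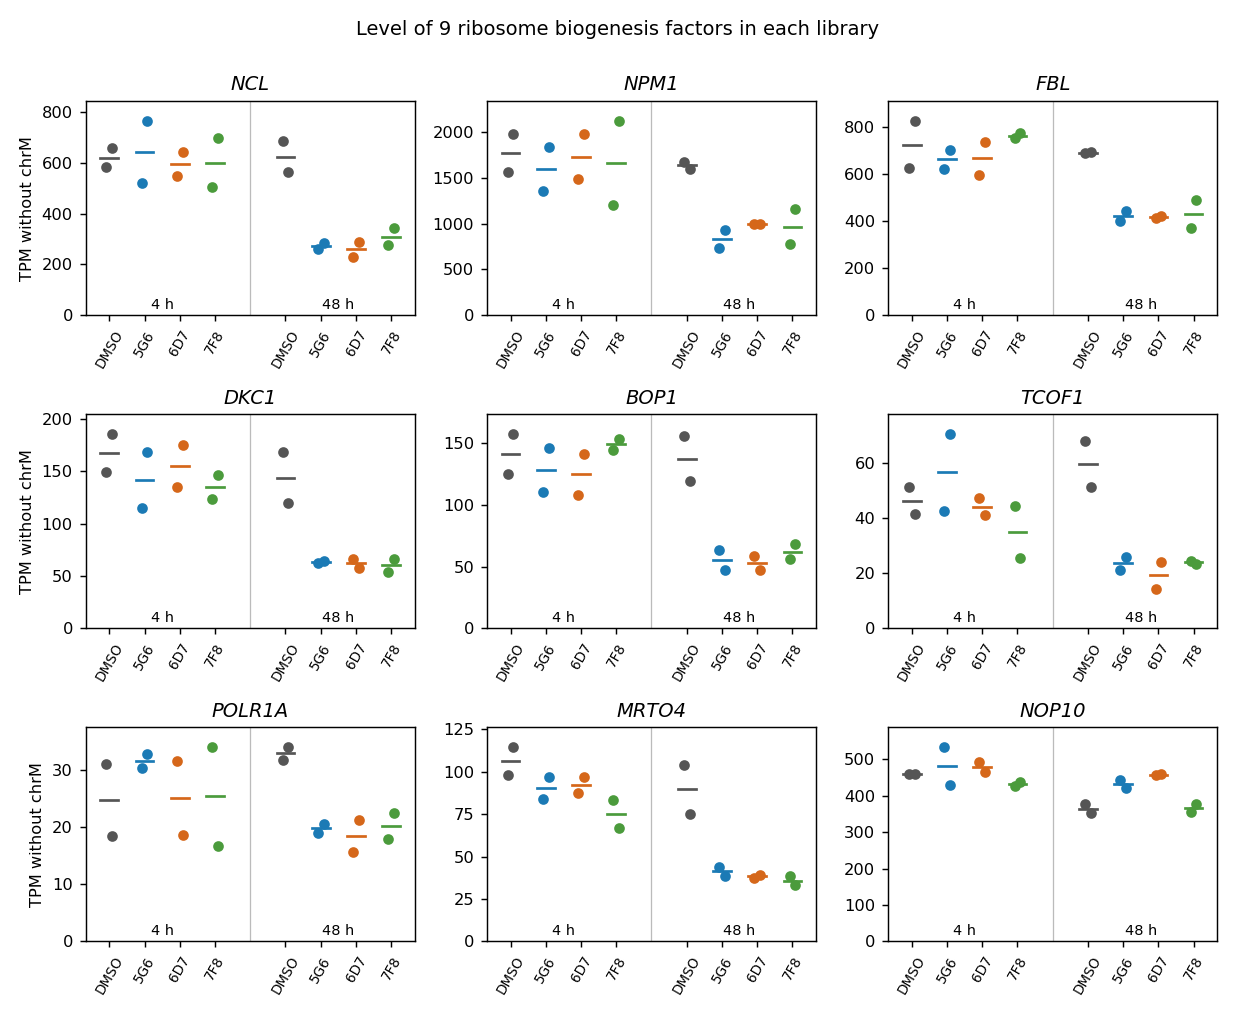
Level of 9 factors (y axis, TPM without mitochondrial genes, from 0) in each library, by treatment and hour on the x axis, with a point for each library and a line for the mean of 2. At 48 h the compound points lie below both DMSO points in every panel except that of NOP10, and at 4 h compound and DMSO points overlap in most panels, while in that of MRTO4 every compound point is below both DMSO points.

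Among the 10 factors of the small subunit processome and its maturation, 2, 3 and 3 were called lower with 5G6, 6D7 and 7F8 (medians -0.77, -0.76 and -0.82). BYSL encodes bystin, needed late in small subunit assembly, and was the only one called with every compound. Its level was 61.6 and 56.1 TPM in the DMSO libraries, 29.3 and 23.2 with 5G6, 22.7 and 24.9 with 6D7 and 24.7 and 21.9 with 7F8. The compound libraries were all below 30 TPM and the DMSO libraries above 56 TPM. The log2 fold changes were -1.14 with 5G6, -1.27 with 6D7 and -1.30 with 7F8 (SE 0.20, adjusted p = 0.0135, 0.00855 and 0.00581). WDR43 fell with 5G6 (-0.89, adjusted p = 0.0488) and 7F8 (-1.14, adjusted p = 0.0125), UTP4 with 6D7 (-0.84, adjusted p = 0.0405) and 7F8 (-0.91, adjusted p = 0.0221), and UTP20 with 6D7 (-1.04, adjusted p = 0.0490). These 3 are components or partners of the processome that assembles on the nascent precursor. UTP15, WDR75, HEATR1, RRP9 and NOP14 were called with no compound, although both libraries of each compound were below both DMSO libraries. Their log2 fold changes ran from -0.87 (HEATR1 with 7F8) to -0.52 (NOP14 with 5G6).

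RRP12, an export and maturation factor, had the least certain value of the list (SE 0.48). It stood at 54.3 and 35.3 TPM in the DMSO libraries, 35.9 and 23.5 with 5G6, 112 and 27.3 with 6D7 and 29.0 and 27.3 with 7F8. Replicate 1 of 6D7 was the highest of all 16 libraries and replicate 2 was below DMSO. The log2 fold change with 6D7 was 0.33 (adjusted p = 0.751), and it was -0.66 without that replicate and 1.33 without the other (adjusted p = 0.0209). No cause of this library's value was tested.

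Of the 12 large subunit factors, 7, 5 and 9 were called lower with 5G6, 6D7 and 7F8 (medians -0.90, -0.84 and -1.02). BOP1, PES1 and WDR12 form the PeBoW complex, which is needed to process the precursor of the large subunit RNAs. BOP1 was at 156 and 119 TPM in the DMSO libraries, 63.1 and 47.4 with 5G6, 58.8 and 47.4 with 6D7 and 56.1 and 68.2 with 7F8. Every compound library was under 70 TPM and the DMSO libraries were over 110 TPM. BOP1 fell by 1.30 with 5G6, 1.35 with 6D7 and 1.12 with 7F8 on the log2 scale (SE 0.23, adjusted p = 0.0145, 0.0109 and 0.0148). PES1 was at 148 and 125 TPM in the DMSO libraries, 81.4 and 72.1 with 5G6, 118 and 78.4 with 6D7 and 70.0 and 75.3 with 7F8. It fell with 5G6 (-0.82, adjusted p = 0.0388) and 7F8 (-0.90, adjusted p = 0.0173), and its first 6D7 replicate was close to DMSO (-0.50, adjusted p = 0.160). WDR12 was at 44.1 and 46.2 TPM in the DMSO libraries, 27.5 and 35.7 with 5G6, 17.3 and 36.8 with 6D7 and 21.0 and 30.5 with 7F8. The third member of the complex was not called with any compound (log2 fold changes -0.51 with 5G6, -0.81 with 6D7 and -0.81 with 7F8, adjusted p = 0.380, 0.129 and 0.108).

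MRTO4, NOP16 and NOC2L were called with all 3 compounds. MRTO4 encodes the nucleolar counterpart of a ribosomal stalk protein, which holds its place during assembly. Its level was 104 and 75.4 TPM in the DMSO libraries, 44.1 and 38.7 with 5G6, 37.5 and 39.2 with 6D7 and 38.4 and 33.0 with 7F8. The compound libraries ranged from 33.0 to 44.1 TPM, below both DMSO libraries. MRTO4 changed by -1.08 with 5G6, -1.19 with 6D7 and -1.29 with 7F8 (SE 0.20, adjusted p = 0.0152, 0.0101 and 0.00550). NOP16 was at 149 and 104 TPM in the DMSO libraries, 60.2 and 50.0 with 5G6, 55.6 and 54.4 with 6D7 and 53.0 and 54.3 with 7F8, with log2 fold changes of -1.17 with 5G6, -1.16 with 6D7 and -1.20 with 7F8 (adjusted p = 0.00912, 0.00841 and 0.00550). NOC2L, a factor of early large subunit particles, was at 127 and 133 TPM in the DMSO libraries, 58.1 and 62.6 with 5G6, 65.0 and 68.0 with 6D7 and 56.2 and 72.1 with 7F8, with log2 fold changes of -1.09 with 5G6, -0.96 with 6D7 and -1.02 with 7F8 (adjusted p = 0.00859, 0.0115 and 0.00642).

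NOP2, a methyltransferase for the large subunit RNA, stood at 100.5 and 82.3 TPM in the DMSO libraries, 45.6 and 41.5 with 5G6, 39.0 and 44.1 with 6D7 and 36.7 and 37.8 with 7F8. It was called with 6D7 (-1.11 ± 0.27 SE, adjusted p = 0.0361) and 7F8 (-1.26 ± 0.27 SE, adjusted p = 0.0167), and with 5G6 it was -1.05 (adjusted p = 0.0543). GNL3 (nucleostemin, a GTP-binding protein of the nucleolus) and NIP7 were called with 5G6 and 7F8. The log2 fold changes of GNL3 were -0.98 with 5G6, -0.70 with 6D7 and -1.03 with 7F8, and those of NIP7 -0.75 with 5G6, -0.67 with 6D7 and -0.80 with 7F8, the 6D7 values uncalled. PPAN was called with 7F8 alone. Its level was 51.3 and 40.3 TPM in the DMSO libraries, 27.7 and 32.6 with 5G6, 43.9 and 31.3 with 6D7 and 17.6 and 19.1 with 7F8. The 7F8 libraries were the lowest, and the 6D7 libraries overlapped with DMSO (log2 fold changes -0.58 with 5G6, -0.29 with 6D7 and -1.27 with 7F8, adjusted p = 0.266, 0.593 and 0.0159). PPAN overlaps on the same strand with the readthrough gene PPAN-P2RY11 (2.35 to 18.7 TPM over all libraries), so its value is uncertain. RRS1 was not called (-0.65 with 5G6, -0.87 with 6D7 and -0.67 with 7F8), nor was RRP1 (-0.31 with 5G6, -0.33 with 6D7 and -0.35 with 7F8). The smallest change of the group was that of RRP1 with 5G6 and 7F8 and that of PPAN with 6D7.

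The nucleolar chaperones and structural proteins carried the largest share of the summed level, with 2811 and 2567 TPM in the DMSO libraries at 48 h against 1182 and 1420.1 with 5G6, 1519.7 and 1511 with 6D7 and 1207 and 1729 with 7F8. Of the 6, 3, 1 and 4 were called lower (medians -1.04, -0.77 and -1.07). NCL, nucleolin, binds the nascent precursor. Its level was 685 and 562 TPM in the DMSO libraries, 260.4 and 283 with 5G6, 231 and 287 with 6D7 and 277 and 341 with 7F8. All compound libraries were well below both DMSO libraries. NCL fell with each compound, by 1.19, 1.27 and 1.01 on the log2 scale (SE 0.23, adjusted p = 0.0170, 0.0122 and 0.0193).

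NPM1, nucleophosmin, gives the outer nucleolus its liquid-like structure and was the most abundant of the 40. Its level was 1675 and 1599.6 TPM in the DMSO libraries, 729 and 928 with 5G6, 997 and 998 with 6D7 and 773 and 1158 with 7F8. No compound library overlapped with DMSO, and no comparison was called (log2 fold changes -0.99 with 5G6, -0.71 with 6D7 and -0.79 with 7F8, SE 0.28, adjusted p = 0.0778, 0.167 and 0.108). NPM1 has processed copies in the genome, and how reads were shared with them is not given in the sources used here. NPM3, a relative of NPM1, was called with 5G6 (-1.10) and 7F8 (-1.02) and not with 6D7 (-0.64).

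NOLC1 (Nopp140) shuttles snoRNPs and stood at 154 and 137 TPM in the DMSO libraries, 57.6 and 58.8 with 5G6, 102 and 64.5 with 6D7 and 51.8 and 66.5 with 7F8. It was called with 5G6 (-1.30 ± 0.24 SE, adjusted p = 0.0152) and 7F8 (-1.29 ± 0.24 SE, adjusted p = 0.0102). The first 6D7 replicate was the nearest to DMSO, and that change was not called (-0.83, adjusted p = 0.0642). DDX21, an RNA helicase, was called with 7F8 (-1.11, adjusted p = 0.0209) and not with 5G6 (-0.93) or 6D7 (-0.63). DDX21 overlaps on the same strand with the tested gene DDX50, so its value is uncertain. LYAR had large but variable values (-0.90 with 5G6, -1.10 with 6D7 and -1.19 with 7F8, SE 0.38) and was not called.

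Across compounds, 9 factors were called lower with all 3 (NOP16, NOP56, DKC1, NCL, BOP1, NOC2L, BYSL, MRTO4 and TCOF1), 10 with a pair of compounds, 7 with 1 and 14 with none. The comparisons share the DMSO libraries, and the share of all tested genes called lower with all 3 compounds was not counted. The 9 span every role group, and NOP16, NOP56, BOP1, NOC2L and MRTO4 among them overlap a tested gene on the opposite strand. At an unadjusted p below 0.05 the counts were 34, 36 and 35 of 40 for 5G6, 6D7 and 7F8, all of them lower except NOP10 with 6D7, against 19, 21.5 and 24.6 percent of all tested genes in either direction.

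At 4 h no factor was called with any compound, and no gene of the 15958 was (limma, 0 percent in each comparison; 518, 180 and 867 genes had an unadjusted p below 0.05). The median log2 fold changes of the 40 were -0.01, -0.07 and -0.21 with 5G6, 6D7 and 7F8, beside 0.11, 0.01 and -0.11 for all tested genes. At an unadjusted p below 0.05 there were 0, 0 and 2 factors, the latter being MRTO4 and UTP20 with 7F8, against 3.25, 1.13 and 5.43 percent of all tested genes. Both libraries lay below both DMSO libraries for 4 factors with 5G6, against 7.9 percent of all tested genes. This was so for 7 factors with 6D7, against 9.49 percent, and for 14 with 7F8, against 23.4 percent.

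The factors with the smallest p at 4 h illustrate the size of the values. MRTO4 was at 98.3 and 115 TPM with DMSO, 84.2 and 97.2 with 5G6, 87.7 and 96.8 with 6D7 and 83.4 and 67.1 with 7F8. Every compound library was below both DMSO libraries, with log2 fold changes of -0.23 with 5G6, -0.20 with 6D7 and -0.50 with 7F8 (SE 0.20) and an adjusted p of 0.875 at the lowest. UTP20 was at 17.6 and 13.1 TPM with DMSO and 10.2 and 8.40 with 7F8 (-0.66, adjusted p = 0.885). NOP16 was at 158 and 159 TPM with DMSO, 147 and 133 with 6D7 (-0.18) and 133 and 113 with 7F8 (-0.37). The other values in this set were POLR1A (0.38) and UBTF (-0.30) with 5G6 and NHP2 (-0.24) with 6D7, all uncalled.

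Other factors had these ranges over the 8 libraries of 4 h. NCL ran from 503 to 765 TPM, NPM1 from 1203 to 2122, FBL from 598 to 826 and DKC1 from 115 to 186. POLR1A ran from 16.8 to 34.1 TPM, POLR1B from 16.4 to 28.2, RRN3 from 42.7 to 58.3, UBTF from 45.2 to 99.4 and TCOF1 from 25.4 to 70.6. The low end of POLR1A came from replicate 2 of DMSO, 6D7 and 7F8 alike, at 18.5, 18.6 and 16.8 TPM. BOP1 ran from 108 to 157 TPM, PES1 from 114 to 148, WDR12 from 34.1 to 46.2, NOP2 from 54.6 to 114, NOP56 from 277 to 375 and NOP58 from 92.9 to 164. NHP2 ran from 383 to 603 TPM, GAR1 from 64.5 to 93.7, NOP10 from 426 to 534 and BYSL from 54.3 to 80.7. RRP12 ran from 44.5 to 69.4 TPM, NOC2L from 95.95 to 124, NOLC1 from 112 to 166 and PPAN from 30.9 to 57.0.

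Although calls were made at 48 h and not at 4 h, the change in effect between the hours was itself called for no factor with any compound. Over all tested genes, 0, 0 and 0.00627 percent were called in this test for 5G6, 6D7 and 7F8. The median difference of the 40, effect at 48 h minus effect at 4 h, was -0.86, -0.71 and -0.75 on the log2 scale, beside -0.19, -0.07 and -0.08 for all tested genes. An unadjusted p below 0.05 was found for 28, 18 and 20 factors, against 7.59, 7.75 and 8.67 percent of all tested genes. This difference carries the spread of 4 groups. In DMSO alone the 40 summed to 6710.0 and 7746 TPM at 4 h and 7089 and 6303 at 48 h, the median log2 difference (48 h minus 4 h) was -0.07 beside 0.17 for all tested genes, and none was called (limma, 0 percent of all tested genes; 2 factors, both of the box H/ACA group, had an unadjusted p below 0.05, against 2.35 percent of all tested genes).

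No factor was called between compounds in any of the 6 comparisons at matched hour and labelled dose. Of all tested genes, 0, 0.00627 and 0 percent were called at 4 h for 5G6 against 6D7, 5G6 against 7F8 and 6D7 against 7F8, and 0.00627, 0.288 and 0.489 percent at 48 h. At an unadjusted p below 0.05 there were 0, 1 and 0 factors at 4 h, against 1.19, 10 and 5.77 percent of all tested genes, and 0, 1 and 5 at 48 h, against 2.13, 9.11 and 12.7 percent. This does not show that the compounds act alike: the 95% interval of a difference reached 0.52 to either side on the log2 scale in the median factor, and 0.30 to 1.04 over the 40. The interval stayed within 1 log2 unit of 0 for 35, 37 and 32 of 40 factors at 48 h and for 37, 34 and 37 at 4 h.

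The largest difference at 48 h was in PPAN, higher with 6D7 than with 7F8 by 0.98 on the log2 scale (95% interval 0.39 to 1.56, adjusted p = 0.155). PPAN was also higher with 5G6 than with 7F8, by 0.68 (0.10 to 1.27, adjusted p = 0.436). Between 5G6 and 6D7 the largest was RRP12 (-0.91, interval -1.95 to 0.14), which rests on the 6D7 library named before. UBTF differed in the other direction, lower with 6D7 than with 7F8 (-0.69, interval -1.29 to -0.09). At 4 h the largest was UTP20, higher with 5G6 than with 7F8 by 0.85 (0.25 to 1.46, adjusted p = 0.391). On TPM with mitochondrial genes left in, 8 factors were called higher with 6D7 than with 7F8 at 48 h, PPAN among them (1.41, adjusted p = 0.00846). On that scale the median of all tested genes in this comparison was 0.39 higher than on the scale used here.

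Further genes of the pathway were called lower at 48 h as well, and none was called higher. Of 156 further genes in 6 lists, 21, 17 and 46 were called lower with 5G6, 6D7 and 7F8 (medians -0.60, -0.44 and -0.61). The share over all tested genes was 2.11, 3.58 and 6.5 percent, and the counts of some of the lists are near it. Other subunits and partners of RNA polymerase I were called in 0, 2 and 2 of 13 cases, and other snoRNP proteins and their assembly factors in 4, 2 and 4 of 10. Other small subunit factors were called in 6, 6 and 13 of 47 cases and other large subunit factors in 7, 3 and 18 of 53. The RNA exosome, the nuclease complex that trims ribosomal RNA and is unrelated to the vesicles of the same name, was called in 3, 3 and 6 of 14. RNA polymerase III, which makes the smallest ribosomal RNA, was called in 1, 1 and 3 of 19.

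Among these genes RUVBL1, an ATPase of snoRNP assembly, fell from 123 ± 4.50 TPM (SD, n = 2) with DMSO to 53.0 ± 7.64 with 5G6 and 50.7 ± 14.0 with 6D7 (log2 fold changes -1.21 and -1.29, limma adjusted p = 0.00989 and 0.00662). POLR3G, a subunit of RNA polymerase III, fell from 11.9 ± 2.15 TPM to 3.70 ± 1.71 with 5G6 and 3.55 ± 1.22 with 7F8 (-1.50 and -1.52). CD3EAP, an RNA polymerase I subunit, had the largest fall with 6D7, from 21.8 ± 7.84 to 5.75 ± 0.795 TPM (-1.72, adjusted p = 0.0320). EXOSC9 with 5G6 (-1.11), EXOSC2 with 6D7 (-1.29) and EXOSC8 with 7F8 (-1.23) are subunits of the RNA exosome. BRIX1, a large subunit assembly factor, fell from 89.9 ± 12.0 to 37.3 ± 0.0514 TPM with 7F8 (-1.24, adjusted p = 0.0125).

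Transcripts of the ribosomal proteins that these factors assemble had medians nearer to 0. The 85 tested cytosolic ribosomal protein genes, near-identical relatives included, had median log2 fold changes of -0.13, -0.03 and 0.09 at 48 h with 5G6, 6D7 and 7F8. Of these, 1, 1 and 2 were called lower, against 2.11, 3.58 and 6.5 percent of all tested genes, and 0, 0 and 1 higher. Their summed level was 165072 and 148638 TPM with DMSO, 157284 and 139523 with 5G6, 175956 and 141642 with 6D7 and 174039 and 176033 with 7F8, so that the groups overlapped for 5G6 and 6D7. The 78 mitochondrial ribosomal protein genes lay between, with medians of -0.40, -0.33 and -0.55 and 3, 6 and 20 called lower. The difference between these lists and the 40 was not tested.

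Markers of dividing cells moved with the factors. The 10 such genes looked at were MKI67, TOP2A, CCNB1, CDK1, PCNA, MCM2, MCM5, MCM6, CCNA2 and BUB1. At 48 h 4, 9 and 9 of them were called lower with 5G6, 6D7 and 7F8, against 2.11, 3.58 and 6.5 percent of all tested genes. Of the 10, 0 were called higher (medians -1.70, -2.61 and -2.74). Their summed level was 1693 and 1752 TPM with DMSO, 454 and 711 with 5G6, 263 and 593 with 6D7 and 264 and 472 with 7F8. None was at 0 in any library. Their part in the change of the biogenesis factors was not tested.

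**Figure D3:**
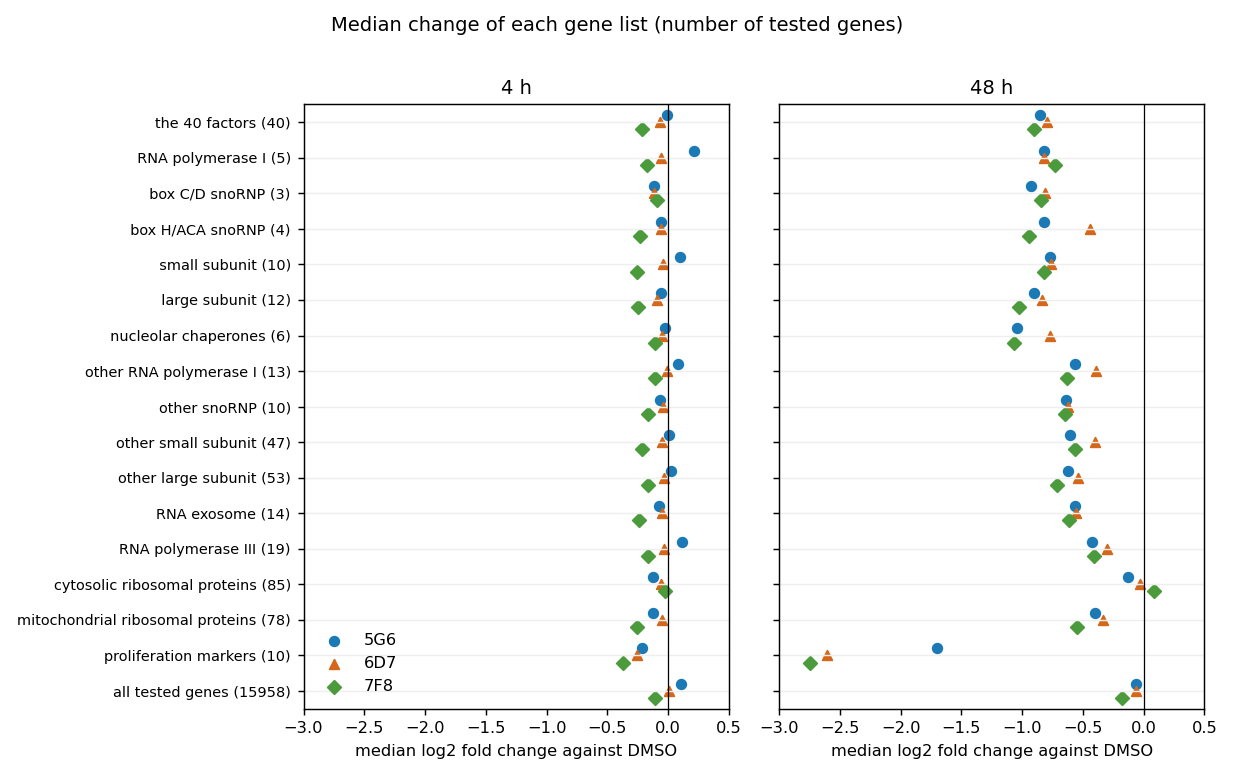
Median log2 fold change against DMSO (x axis) of each gene list (y axis, number of tested genes in brackets), at 4 h on the left and 48 h on the right, with a symbol for each compound. At 48 h the 40 factors lie at -0.85, -0.79 and -0.90 for 5G6, 6D7 and 7F8, the cytosolic ribosomal proteins at -0.13, -0.03 and 0.09 and the proliferation markers at -1.70, -2.61 and -2.74.

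By position, 7 of the 40 genes hold snoRNA genes on their own strand (17.5 percent, 24 snoRNA genes in all), against 1.62 percent of 15649 tested genes placed on chromosomes. These are NOP56 (SNORD110, SNORA51, SNORD86, SNORD56 and SNORD57), NOP58, GNL3, NCL, WDR43, DKC1 and PPAN. Such genes release snoRNAs, the guides of ribosomal RNA modification, from their introns. With 7F8 all 7 were called lower, beside 24 of the 40 factors and 6.5 percent of all tested genes. With 5G6 it was 5, beside 16 factors and 2.11 percent, and with 6D7 3, beside 14 factors and 3.58 percent. The levels of the snoRNAs are not described here. Strandedness was not stated, and 14 of the 40 overlap a tested gene on the opposite strand (such as NOP14 with NOP14-AS1 and RRN3 with PDXDC1), so reads of such pairs cannot be told apart. Among the 14 are factors called lower with every compound: NOP56 (with IDH3B), NOP16 (HIGD2A), BOP1 (SCX), NOC2L (SAMD11) and MRTO4 (AKR7L).

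**Figure D4:**
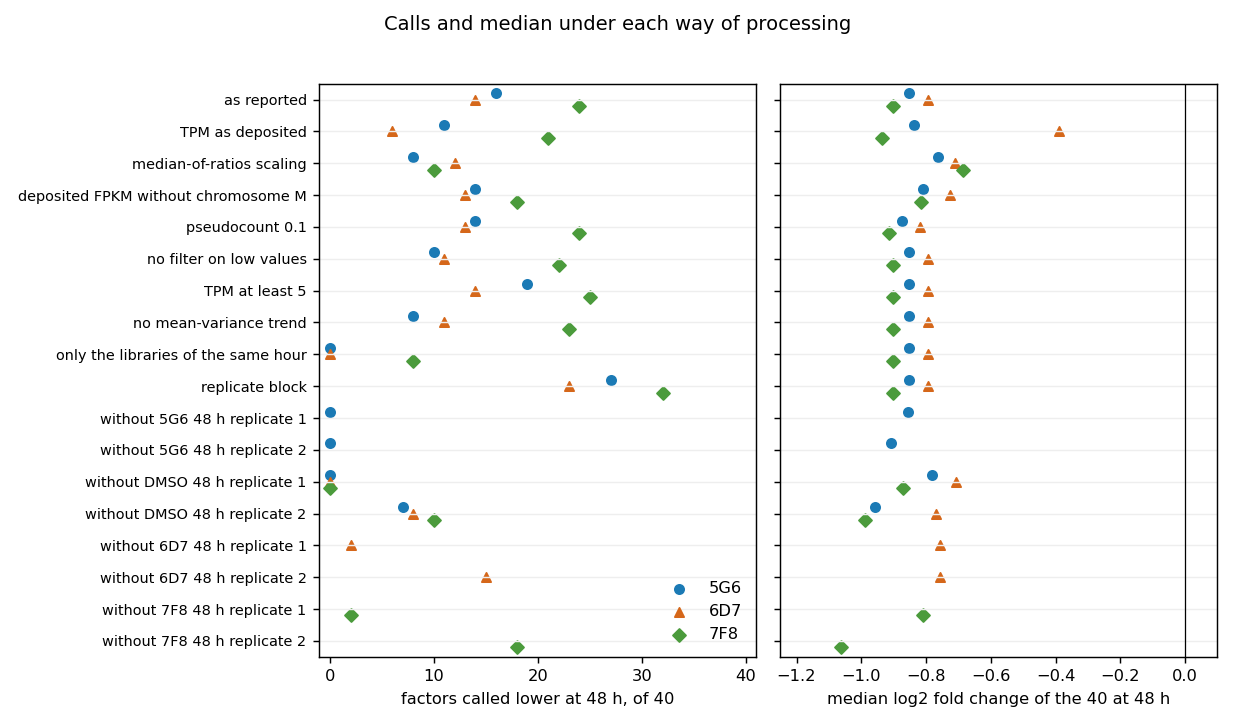
Number of the 40 factors called lower at 48 h (left, x axis) and their median log2 fold change (right, x axis) under each way of processing (y axis), with a symbol for each compound. The counts run from 0 to 27 for 5G6, 0 to 23 for 6D7 and 0 to 32 for 7F8, while the medians stay between -1.06 and -0.69 except for 6D7 on TPM with mitochondrial genes left in (-0.39).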

How the data were processed

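PolyA RNA of 16 libraries (8 groups of 2) was measured. Per the labels' protocols RNA was TRIzol-extracted, DNase-treated and made into NEBNext Ultra libraries from 1 µg. The submitters' processing notes name STAR 2.6.1a, featureCounts 1.6.3, StringTie 2.0 and GRCh38; strandedness is not given in the sources used here. TPM values were made by the authors before deposit, per the file headers, and add up to the same total in every library with mitochondrial genes included. FPKM values were deposited by the authors beside them, as was read coverage per gene (signal without scaling between libraries).

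Rows of one symbol were summed, chromosome M dropped and TPM rescaled to that total. Genes reaching 1 TPM in 2 or more libraries were fitted on log2(TPM + 1), pseudocount 1, with limma 3.58.1 (R 4.3.3) on 8 group means with 8 residual degrees of freedom and a mean-variance trend; p-values were adjusted by Benjamini-Hochberg per comparison. A fold change on this scale understates the change of low genes. In all, 6 comparisons with DMSO, 6 between compounds, 3 of effects between hours and 1 of DMSO between hours were made. On data simulated for 5G6 against DMSO at 48 h over 15958 genes limma called 42 of 100 genes changed 2-fold and 83 of 100 changed 4-fold, with 7 false calls. The simulated noise was independent between libraries, and the changed genes were drawn from those above a minimum mean level. In the data replicate differences were correlated between groups, so these figures may not carry over. Tables and motifs were made with Python 3.11.15 and pandas 2.3.3.

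The members, lists and tests were chosen with earlier results of these data known. Library values were given for 15 factors fixed by name and for the 4 largest called changes in each direction per comparison with DMSO, or the 3 smallest p where none was called; of other pathway genes the 3 largest called changes each way were named. Further members were named after their values were seen. Alternatives were other scalings, pseudocounts, filters, fits and leaving out each library.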

Additional observations from a re-analysis of the deposited data

How the results depend on the processing

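At 4 h no factor was called under any alternative; the median with 5G6 was -0.16 to 0.13 when 1 library was left out, and NHP2 with 6D7 ran from -0.50 to 0.017, the latter without DMSO replicate 2. At 48 h the factors called lower with 5G6 (16) numbered 8 with median-of-ratios scaling, 10 without a filter, 8 without the mean-variance trend and 0 when only the libraries of that hour were fitted. With 6D7 (14) they numbered 6 on TPM as deposited, with 1 called higher and a median of -0.39, and 0 with only that hour. With 7F8 (24) they numbered 10 with median-of-ratios scaling, with a median of -0.69, and 8 with only that hour. Leaving out 1 library gave 0 to 7 calls with 5G6, 0 to 15 lower and 0 to 1 higher with 6D7, and 0 to 18 with 7F8, with 7F8 medians of -1.06 to -0.81. Between compounds at 48 h, 8 factors were called for 6D7 against 7F8 on TPM as deposited, and leaving out 1 library gave 0 to 1 for 5G6 against 6D7 and for 6D7 against 7F8. Fewer libraries fitted also means fewer residual degrees of freedom. The cause of the other changes was not tested, and the shares of all tested genes called under these alternatives were not counted.

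The labels give replicate numbers 1 and 2 in each group without saying that a number marks a shared day or culture. With the replicate number as a block, 27, 23 and 32 factors were called lower with 5G6, 6D7 and 7F8, among them NPM1 (adjusted p = 0.00905, 0.0329 and 0.0170) and WDR75 (0.0150, 0.0242 and 0.00991) with each compound. The share of all tested genes called with the block was not counted. Replicate differences correlated across genes between groups of the same hour (r = 0.36 to 0.59 at 4 h and 0.38 to 0.55 at 48 h), a hint from the data and not the design. Over all pairs of groups, those of different hours included, r ran from 0.054 to 0.59, while the block used the same term for both hours. With 2 libraries a group the spread is poorly known, and coverage gives no read counts.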
